A study of Oncorhynchus mykiss with 9 samples.

Results

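The genes described here were 6 rows of 46585 in count tables of rainbow trout IgM+ B cells, assigned to the receptor CD40 and to the adaptors TRAF1, TRAF2 and TRAF3. They were chosen by their gene identifiers, 2 for CD40 (GSONMG00013182001 and GSONMG00049041001), 1 for TRAF1 (GSONMG00001226001), 1 for TRAF2 (GSONMG00070533001) and 2 for TRAF3 (GSONMG00068560001 and GSONMG00068562001). The study had taken them up because its own tests found them higher than in control cells after stimulation with 1 or both of 2 antigens. The values against control are therefore given below as a description, with no test, and nothing is supported with them. The names were checked against the protein descriptions in the tables. The TRAF rows carried descriptions of TRAF1-like, TRAF2-like and TRAF3-like proteins, but both CD40 rows were described only as "tumour necrosis factor receptor", so that their assignment to CD40 rests on the study and not on the tables. They are called CD40-assigned genes here.

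Splenic leukocytes of female trout of 50 to 70 g were kept for 24 h without antigen (control), with TNP-KLH or with TNP-LPS, and live IgM+ cells were then sorted and their total RNA sequenced. TNP is the hapten 2,4,6-trinitrophenyl, which is carried by a mollusc hemocyanin (KLH) or by bacterial lipopolysaccharide (LPS). Each condition had 3 libraries, numbered 1 to 3 and stated to be biological replicates, with no statement on whether a library held cells of 1 fish or of several. The antigen dose is 5 µg/ml in the study's methods and 5 mg/ml in the sample labels. Other splenic leukocytes shared the cultures with the B cells until sorting, which limits the groups as a model of B cells meeting antigen alone.

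CD40 is a member of the TNF receptor superfamily that B cells carry on their surface, and its ligand in mammals is presented mainly by activated T cells. The receptor has no enzyme activity and signals through TRAF proteins that bind its cytoplasmic tail. In mouse and human cells TRAF2 recruits ubiquitin ligases of the cIAP type, and TRAF3 holds the kinase NIK in a complex with them where NIK is degraded, which keeps the non-canonical NF-κB pathway off until a receptor is engaged. TRAF1 lacks the RING finger of the other members, pairs with TRAF2 and is itself a gene that NF-κB switches on. Salmonid genomes hold many duplicated genes, so that a mammalian gene often has several trout counterparts.

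Libraries held 8080787 to 12164154 counted reads. Levels are given as CPM, the reads of a gene relative to all reads of its library, after scaling by trimmed mean of M-values (TMM), and since gene lengths were not used, levels are compared between conditions and not between genes. Reads of near-identical gene copies cannot be told apart with certainty in these counts. Control replicate 2 and TNP-KLH replicate 2 stood apart by hemoglobin and T cell marker RNA. Hemoglobin genes took 0.703% of the reads of control replicate 2 and 0.228% of those of TNP-KLH replicate 2, against 0.00282 to 0.0366% in the other libraries. The sum of 10 T cell marker genes, all of them kept for the tests and none at 0 throughout a condition, was 81.2 CPM in control replicate 2 and 73.2 CPM in TNP-KLH replicate 2, but 15.8 CPM in TNP-LPS replicate 2, and it was 2.40 to 23.9 CPM in the other libraries. Of 50 B cell marker rows, 40 were kept, and their summed level was 3438 to 4071 CPM in control, 2807 to 3075 CPM with TNP-KLH and 2045 to 2418 CPM with TNP-LPS. Summed neutrophil markers (2 of 4 rows kept) ran from 0.279 to 26.4 CPM and were highest in control replicate 1. Thrombocyte markers (8 of 8) ran from 21.9 to 210.7 CPM and were highest in control replicate 2. Within TNP-KLH they were also highest in replicate 2, at 57.15 CPM, but within TNP-LPS replicate 2 was the lowest, at 21.9 CPM. In bulk RNA, fewer cells of a type and less RNA per cell cannot be told apart.

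The first CD40-assigned gene (GSONMG00013182001) had 8.19, 22.8 and 4.90 CPM in control libraries 1 to 3, 25.3, 69.8 and 20.3 CPM with TNP-KLH, and 29.0, 79.0 and 28.6 CPM with TNP-LPS. Library 2 was the highest in each condition, and control replicate 2 stood above TNP-KLH replicate 3, so that control and TNP-KLH overlapped while control and TNP-LPS did not. Means were 11.96 ± 9.52, 38.5 ± 27.3 and 45.5 ± 29.0 CPM (SD, n = 3). Within a condition the highest library was 2.76 to 4.65 times the lowest. Between libraries with the same number the picture was tighter, with TNP-KLH over control at 3.09, 3.06 and 4.14-fold and TNP-LPS over control at 3.55, 3.47 and 5.83-fold. The fitted log2 change was 1.69 (SE 0.68) for TNP-KLH and 1.93 (SE 0.68) for TNP-LPS, and with the replicate number as a block it was 1.74 (SE 0.19) and 2.04 (SE 0.19).

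The second CD40-assigned gene (GSONMG00049041001) gave 2.83, 4.91 and 0.856 CPM in control, 8.18, 20.02 and 5.12 CPM with TNP-KLH, and 11.8, 16.1 and 7.15 CPM with TNP-LPS. Here all stimulated libraries were above all control libraries, and library 2 was again the highest and library 3 the lowest in each condition. The gene was counted from few reads, 11 to 47 in control, 47 to 220 with TNP-KLH and 76 to 152 with TNP-LPS. Its log2 change was 1.97 (SE 0.65) for TNP-KLH and 2.04 (SE 0.66) for TNP-LPS.

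Because the libraries numbered 2 were the highest in both CD40-assigned genes, and those of control and TNP-KLH also held the most hemoglobin and T cell marker RNA, the values were taken again without all 3 of them. The log2 changes of the first gene were then 1.82 for TNP-KLH and 2.16 for TNP-LPS, and those of the second 1.88 and 2.38. Leaving out a single library moved them more. For the first gene, TNP-KLH against control was 0.94 without TNP-KLH replicate 2 and 2.63 without control replicate 2, and TNP-LPS against control was 1.27 without TNP-LPS replicate 2 and 2.82 without control replicate 2. For the second gene, TNP-KLH against control was 1.23 without TNP-KLH replicate 2 and 2.69 without control replicate 2. In mammals CD40 is also carried by monocytes and dendritic cells, and the summed level of their markers, 21 of 29 rows kept, was 87.1 to 130.1 CPM in control, 69.3 to 79.7 CPM with TNP-KLH and 21.4 to 35.7 CPM with TNP-LPS. Within control and within TNP-KLH they were highest in replicate 2, as CD40 was. With TNP-LPS they were 35.7, 24.6 and 21.4 CPM in libraries 1 to 3, and thus highest in replicate 1, unlike CD40. T cell markers were high in library 2 of control and TNP-KLH, as CD40 was, but not in TNP-LPS replicate 2, which had the highest level of the first CD40-assigned gene. Much of the summed monocyte and dendritic cell level came from 2 CD209-like rows, at 31.5 and 32.8 CPM on average in control. The part of these other cells in the CD40 values was not tested.

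TRAF1 (GSONMG00001226001), the adaptor without a RING finger, had the widest span of the 6 genes. Control libraries gave 8.60, 14.7 and 14.7 CPM, TNP-KLH libraries 54.9, 142.9 and 77.7 CPM, and TNP-LPS libraries 126.7, 401 and 154 CPM. All stimulated libraries were above all control libraries, whereas TNP-LPS replicate 1 was below TNP-KLH replicate 2. Means were 12.7 ± 3.54 CPM in control, 91.8 ± 45.7 CPM with TNP-KLH and 227 ± 151 CPM with TNP-LPS (SD, n = 3). The log2 change was 2.85 (SE 0.52, or 7.24-fold) for TNP-KLH and 4.16 (SE 0.55, or 17.9-fold) for TNP-LPS. Library 2 of both antigens was the highest, and without all libraries numbered 2 these values were 2.53 and 3.61.

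TRAF2 (GSONMG00070533001), which brings the ubiquitin ligases to the receptor, varied little within a condition. It gave 32.1, 26.1 and 34.2 CPM in control, 129, 103 and 102 CPM with TNP-KLH, and 110.1, 122 and 73.8 CPM with TNP-LPS. The stimulated libraries all lay above the control libraries, and those of the antigens overlapped each other. Its coefficient of variation was 13.5 to 24.8%, against 63.6 to 79.6% for the first CD40-assigned gene. Its log2 change was 1.86 (SE 0.25) for TNP-KLH and 1.73 (SE 0.25) for TNP-LPS, and leaving out any single library kept these between 1.80 and 1.99 and between 1.58 and 1.92.

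The TRAF3 genes, whose protein restrains NIK in mouse and human cells, behaved much like each other. The first (GSONMG00068560001) had 9.00, 5.85 and 8.25 CPM in control, 27.1, 27.9 and 21.7 CPM with TNP-KLH, and 25.6, 34.96 and 17.6 CPM with TNP-LPS. The second (GSONMG00068562001) had 9.51, 4.18 and 8.79 CPM in control, 27.2, 27.9 and 27.8 CPM with TNP-KLH, and 28.4, 36.4 and 18.5 CPM with TNP-LPS. In both, control replicate 2 was the lowest and TNP-LPS replicate 2 the highest of the 9 libraries, and the control libraries did not overlap with the stimulated ones. The log2 changes of the first were 1.73 (SE 0.28) for TNP-KLH and 1.76 (SE 0.29) for TNP-LPS, and those of the second 1.88 (SE 0.34) and 1.88 (SE 0.34). Without all libraries numbered 2 they were 1.52 and 1.34 for the first and 1.61 and 1.37 for the second.

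**Figure D1:**
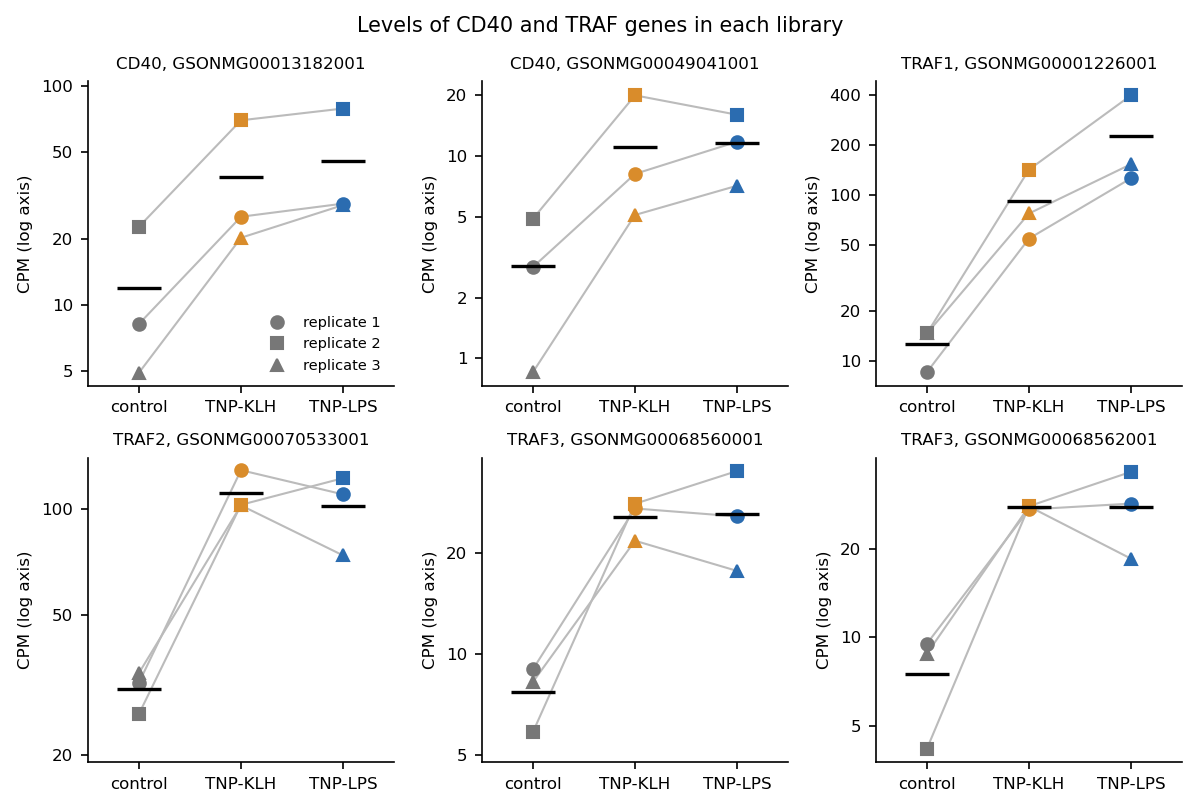
Levels of the 6 genes in each of the 9 libraries, in CPM on a log axis, with 1 panel per gene. Markers show libraries 1, 2 and 3 of control, TNP-KLH and TNP-LPS, grey lines join libraries with the same number and black bars give group means. All lines lie higher under both antigens than in control, library 2 is on top for the CD40-assigned genes, and the TRAF1 lines lie 1.98 to 2.81-fold higher under TNP-LPS than under TNP-KLH (the control libraries 2 and 3 of TRAF1 cover each other at 14.7 CPM).

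As a summary of how the genes had been chosen, all 18 same-number ratios of TNP-KLH over control were above 1, as were all 18 of TNP-LPS over control, over a range of 2.10 to 27.2-fold. Groups did not overlap for 6 of 6 genes between TNP-LPS and control, where 17.4% of all genes tested were higher without overlap, and for 5 of 6 between TNP-KLH and control, where 9.68% were. These counts repeat the contrasts that chose the genes, and nothing is read from them.

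The comparison of TNP-LPS with TNP-KLH was not itself used to choose the genes, although it shares its libraries with those that were. The study called TRAF1 and 1 CD40 gene higher with both antigens, and TRAF2, TRAF3 and another CD40 gene higher with TNP-KLH only. It also reported a further gene named TRAF2 as lower with TNP-LPS. The comparison between the antigens is thus not independent of the study's calls. It asks whether a carrier with bacterial LPS and a protein carrier left the receptor and its adaptors at different levels. edgeR's quasi-likelihood test, fitted over 31691 genes, called 0 of 6 genes, with 1 of 6, TRAF1, at an unadjusted p under 0.05, where 15.4% of all genes were. Over all genes it called 2.12% higher and 0.745% lower with TNP-LPS. DESeq2 also called 0 of 6, beside 5.02% higher and 2.3% lower over all genes.

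Between the antigens, TRAF1 was the only gene of the 6 for which the replicate block changed the call. Its level was with TNP-LPS 2.31, 2.81 and 1.98 times that with TNP-KLH in libraries 1, 2 and 3. The log2 difference was 1.31 (SE 0.49, 95% confidence interval 0.21 to 2.40, edgeR adjusted p = 0.223, by Benjamini and Hochberg over all genes), which was not called. With the replicate block it was 1.25 (SE 0.21, interval 0.79 to 1.70, edgeR adjusted p = 9.81e-04) and was called, in a fit that called 8.49% of all genes higher and 5.94% lower. Leaving out 1 library, with no block, gave log2 differences of 0.61 without TNP-LPS replicate 2 to 1.78 without TNP-KLH replicate 2, with adjusted p by edgeR of 0.188 to 0.617. Without all libraries numbered 2 it was 1.08 (edgeR adjusted p = 0.305), and DESeq2 gave 1.28 (adjusted p = 0.0718). TRAF1 was thus the higher under TNP-LPS in 3 of 3 same-number pairs. Both intervals lay above 0, and whether the difference was called over all genes depended on taking the number into account.

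For the other 5 genes no difference between the antigens was called with or without the block. The intervals give the differences that remain within reach of the values, and are not adjusted for the number of genes tested. For TRAF2 the log2 difference was −0.13 (95% interval −0.66 to 0.41, or 0.634 to 1.32-fold, edgeR adjusted p = 0.895). For the TRAF3 genes it was 0.03 (interval −0.58 to 0.64, edgeR adjusted p = 0.989) and 0.01 (interval −0.71 to 0.73, edgeR adjusted p = 1.0), so that differences above 1.66-fold in either TRAF3 gene lay outside the intervals. Same-number ratios of TNP-LPS over TNP-KLH for TRAF2 were 0.853, 1.19 and 0.721, and those of the TRAF3 genes were 0.665 to 1.31, with library 2 above 1 and library 3 below 1 in all 3 genes. The signs of these small differences turned with the samples fitted.

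The CD40-assigned genes left wider intervals. The first gave a log2 difference of 0.24 (95% interval −1.21 to 1.70, or 0.431 to 3.25-fold, edgeR adjusted p = 0.933), and the replicate block narrowed this to 0.30 (interval −0.08 to 0.67, edgeR adjusted p = 0.346). TNP-LPS was the higher in 3 of 3 same-number pairs, by 1.15, 1.13 and 1.41-fold. The second gave 0.06 (interval −1.31 to 1.44, edgeR adjusted p = 0.989), with TNP-LPS the higher in 2 of 3 pairs. Both signs turned without TNP-KLH replicate 1, TNP-KLH replicate 3 or TNP-LPS replicate 2. The first gene then gave −0.03, −0.12 and −0.42 and the second −0.16, −0.34 and −0.24. Both signs were kept without all libraries numbered 2, where the genes gave 0.34 and 0.50. Without the block the intervals reached up to 3.25-fold in the first gene and 2.71-fold in the second. They are not limits of detection, since an interval clear of no change was not enough for a call over all genes, as TRAF1 showed.

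**Figure D2:**
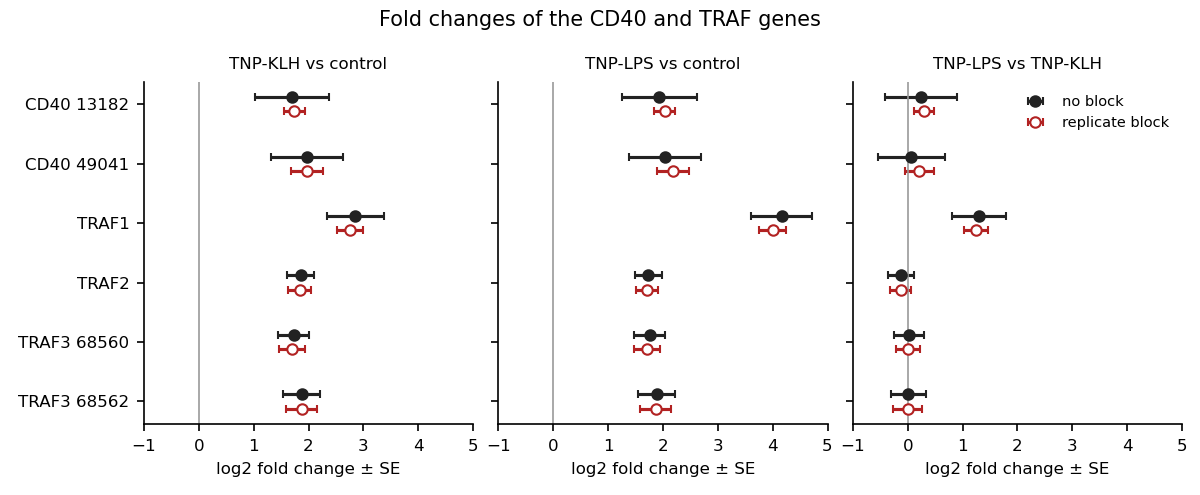
Log2 fold changes of the 6 genes (x axis, with SE) in each comparison. Filled points are the fit without a block and open points that with the replicate number as a block, and CD40 and TRAF3 genes carry the last digits before 001 of their identifiers. The block narrows the error of the CD40-assigned genes from 0.68 to 0.19 for the first of them against control with TNP-LPS, and between the antigens TRAF1 is at 1.31 (SE 0.49) without and 1.25 (SE 0.21) with the block, while the first CD40-assigned gene with the block is at 0.30 (95% interval −0.08 to 0.67).

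The order of the antigens was read from these intervals, while the place of control repeats the contrasts that chose the genes. TRAF1 ran from control through TNP-KLH to TNP-LPS, with the last step called only with the block. In TRAF2 the mean was 30.8 ± 4.16 CPM in control, 111 ± 15.3 CPM with TNP-KLH and 102 ± 25.3 CPM with TNP-LPS (SD, n = 3), and the last 2 did not differ beyond their spread. The same held for the TRAF3 genes, at 7.70 ± 1.64, 25.6 ± 3.38 and 26.1 ± 8.67 CPM for the first and 7.49 ± 2.89, 27.6 ± 0.387 and 27.8 ± 9.00 CPM for the second. It also held for the second CD40-assigned gene, at 2.87 ± 2.03, 11.1 ± 7.87 and 11.7 ± 4.45 CPM. The first, at 11.96 ± 9.52, 38.5 ± 27.3 and 45.5 ± 29.0 CPM, did not differ beyond its spread either, though TNP-LPS was the higher in 3 same-number pairs.

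The 2 CD40-assigned genes and the 2 TRAF3 genes were also compared by their shares of the reads on each pair. Of the reads on the CD40-assigned pair, the first gene took between 71.1% (65.4 to 76.3%, 95% Wilson interval) in TNP-LPS replicate 1 and 85.1% (75.3 to 91.5%) in control replicate 3, with group medians of 82.3%, 77.7% and 80.0% in control, TNP-KLH and TNP-LPS. In TNP-LPS replicate 2 it took 83.1% (80.5 to 85.4%), an interval that did not overlap that of TNP-LPS replicate 1. Of the reads on the TRAF3 pair, the first gene took 43.8% (39.3 to 48.4%) in TNP-KLH replicate 3 to 58.3% (48.3 to 67.7%) in control replicate 2, with medians of 48.6%, 49.9% and 48.8%. The conditions overlapped in both shares. The TRAF3 identifiers differ by 2 in their running number and stand in neighbouring rows of the tables, but positions are not given for them. Whether reads were shared between the copies, or whether both rows are parts of 1 gene, was not tested. The intervals cover counting error only.

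Other rows were described as CD40, TRAF2 or TRAF3, and most of them were not called in any comparison. For CD40 these were 11 rows described as TNF receptor superfamily member 5, which is another name of CD40, and 1 described as member 5A precursor (GSONMG00003531001). The most abundant of them, GSONMG00012579001, had 316, 628 and 398 CPM in control, 557, 786 and 484 CPM with TNP-KLH and 632, 482 and 345 CPM with TNP-LPS. Its groups overlapped, and it was not called with TNP-KLH (log2 change 0.45, edgeR adjusted p = 0.653) or with TNP-LPS (0.12, edgeR adjusted p = 0.850). The 2 CD40-assigned genes thus took a small share of the reads on all 14 rows assigned to or described as CD40. It was 1.19 to 3.63% in control, 4.15 to 9.06% with TNP-KLH and 5.25 to 14.4% with TNP-LPS. Whether all 14 rows are CD40 genes was not tested. The 2 CD40-assigned genes were chosen for being higher after stimulation. A rise of such shares, also for TRAF2 and TRAF3 below, follows partly from that choice.

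The member 5A row had 9.10, 11.5 and 7.62 CPM in control, 17.6, 20.4 and 20.2 CPM with TNP-KLH and 19.4, 13.6 and 14.95 CPM with TNP-LPS, with no overlap between control and either antigen. It rose with TNP-LPS (log2 change 0.76, SE 0.23, edgeR adjusted p = 0.0458), a call that was kept only without control replicate 2 when single libraries were left out (adjusted p 0.0257 to 0.133). The call was also lost without all libraries numbered 2 (edgeR adjusted p = 0.0604). With TNP-KLH the log2 change was 1.04 (SE 0.23, edgeR adjusted p = 0.0692), and with the block it was 1.06 and called (edgeR adjusted p = 0.00478). A further row, GSONMG00035714001, had 77.97, 37.4 and 31.7 CPM in control, 73.3, 30.1 and 34.2 CPM with TNP-KLH and 34.8, 15.4 and 14.6 CPM with TNP-LPS. Its log2 change with TNP-LPS against control was −1.19 (edgeR adjusted p = 0.139), and with the block it was called lower, at −1.19 against control (edgeR adjusted p = 3.91e-05) and −1.09 against TNP-KLH (edgeR adjusted p = 5.03e-04), the opposite direction to the CD40-assigned genes. The other 9 rows were not called in any comparison by either fit.

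TRAF3 had 1 further row, GSONMG00004333001, with 25.2, 28.5 and 35.4 CPM in control, 50.1, 56.6 and 51.0 CPM with TNP-KLH and 46.9, 72.1 and 47.0 CPM with TNP-LPS. All stimulated libraries were above all control libraries. It rose with TNP-LPS (log2 change 0.90, SE 0.23, edgeR adjusted p = 0.0252), but the call was lost without control replicate 1 (adjusted p = 0.0785), control replicate 2 (0.0615) or TNP-LPS replicate 2 (0.0896), all by edgeR. The call was also lost without all libraries numbered 2 (edgeR adjusted p = 0.185). With TNP-KLH the log2 change was 0.82 (SE 0.23, edgeR adjusted p = 0.148), and the block made this a call (0.82, edgeR adjusted p = 0.00989). The 2 TRAF3 genes took 26.0 to 42.4% of the reads on the 3 TRAF3 rows in control, 49.2 to 52.0% with TNP-KLH and 43.5 to 53.5% with TNP-LPS.

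Of 5 further TRAF2 rows, 4 had at most 4 reads in any library and were not tested. The last, GSONMG00082435001, had 10.8, 1.36 and 5.13 CPM in control, 3.82, 1.55 and 2.07 CPM with TNP-KLH and 1.55, 0.423 and 0.928 CPM with TNP-LPS. It fell with TNP-LPS (log2 change −2.60, SE 0.76, edgeR adjusted p = 0.0428), a call that was kept only without control replicate 2 when 1 library was left out (adjusted p 0.0111 to 0.156). With TNP-KLH it was −1.22 (edgeR adjusted p = 0.539), and TNP-LPS against TNP-KLH was called with the block (−1.43, edgeR adjusted p = 0.0467). The TRAF2 gene held 74.1% (95% Wilson interval 69.7 to 78.0%), 93.6% (90.0 to 96.0%) and 86.4% (83.2 to 89.1%) of the reads on all 6 TRAF2 rows in control libraries 1 to 3, and 96.5 to 99.5% in the stimulated libraries. No other row was described as TRAF1. The CD40 ligand, looked up after its values were seen, had 1 row with 4.36 to 7.92 CPM in all libraries (GSONMG00003546001, TNF superfamily member 5), which was not called in any comparison, and 2 rows with at most 6 reads in a library.

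**Figure D3:**
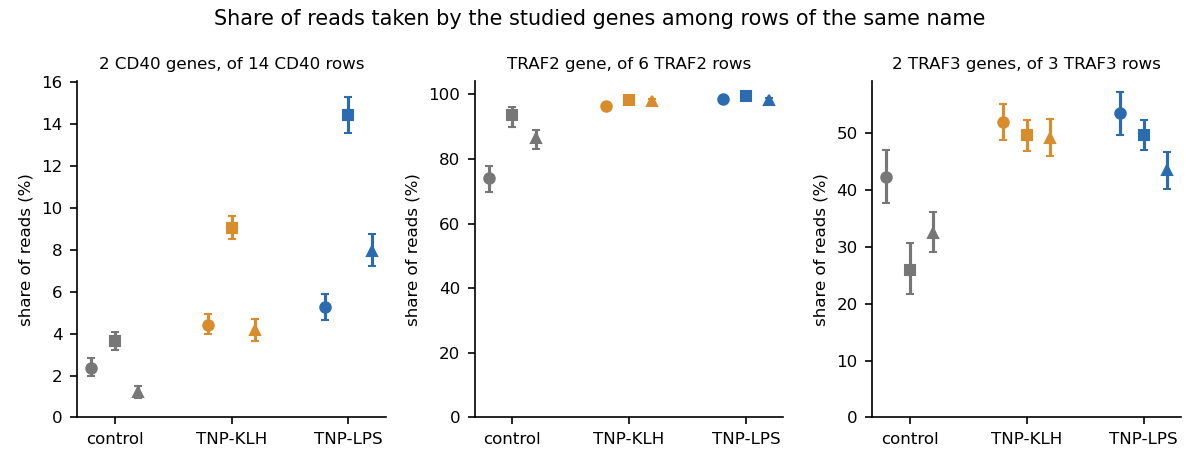
Share of reads (y axis, in percent, with 95% Wilson intervals) that the studied genes took among all rows assigned to or described as CD40, TRAF2 and TRAF3. Points are libraries 1, 2 and 3 (circle, square, triangle) of control, TNP-KLH and TNP-LPS. The stimulated libraries lie above all control libraries in each panel, with CD40 at most at 14.4% and TRAF2 at 96.5% or more after stimulation. The studied genes were chosen for being higher after stimulation, so the rise follows partly from that choice.

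Across libraries the genes fell into sets of like pattern, described here by Pearson's r of log2 CPM over the 9 libraries, which share conditions and replicate numbers and are no independent points. TRAF2 and the TRAF3 genes followed one another most closely. Among 16797 genes with a mean of at least 50 counts, the gene most like TRAF2 was the first TRAF3 gene (r = 0.983) and the next was the second (r = 0.970). The gene most like either TRAF3 gene was the other (r = 0.984), and TRAF2 stood at rank 2 and rank 4 in their lists. The CD40-assigned genes stood at rank 4 and rank 5 in each other's lists (r = 0.962). TRAF1 had r of 0.804 to 0.886 with the other 5 genes.

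All 6 genes were chosen for being higher after stimulation, which alone gives them high r, so the same measure was taken on each library's deviation from the mean of its group. TRAF2 and the TRAF3 genes still had r of 0.799 to 0.888 with one another, and the CD40-assigned genes had r of 0.912. They were not each other's nearest genes by this measure, since among the 16797 genes the TRAF2 and TRAF3 genes stood at ranks 50 to 378 in each other's lists and the CD40-assigned genes at ranks 241 and 246. Between these sets r ran from −0.23 to 0.22. TRAF1 had r of 0.685 and 0.394 with the first and second CD40-assigned genes, 0.0952 with TRAF2, and 0.358 and 0.148 with the TRAF3 genes. Control replicate 2 was the highest control library for both CD40-assigned genes and the lowest for TRAF2 and the TRAF3 genes, whereas TNP-LPS replicate 2 was the highest and TNP-LPS replicate 3 the lowest library with TNP-LPS for all 5 of them.

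**Figure D4:**
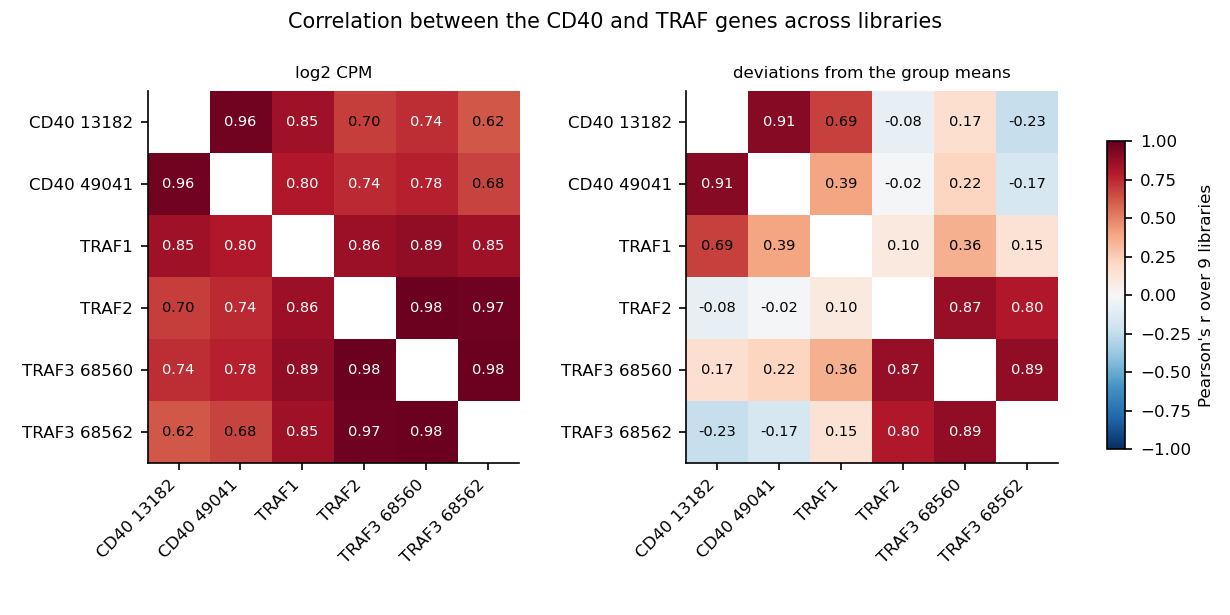
Pearson's r between the 6 genes over the 9 libraries, of log2 CPM (left) and of deviations from the group means (right), on a scale from −1 to 1, with the value in each cell. TRAF2 and the TRAF3 genes form a block in both (0.80 to 0.98), as do the CD40-assigned genes (0.91 and 0.96), while r between those blocks falls to between −0.23 and 0.22 in the deviations.

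The described genes outside the 6 that were most like each of them, among 15898 ranked, were named by r of log2 CPM alone. The choice of the 6 genes raises this r as well. On deviations from the group means, r of the pairs named below ran from 0.70 (S6 kinase with TRAF2) to 0.97 (CHD8 with TRAF1). For TET2 it was 0.79 with TRAF2, and 0.87 and 0.85 with the TRAF3 genes. TRAF1 was closest to an IL-10 receptor gene (GSONMG00061084001, r = 0.992), with 29.8, 105 and 175 CPM on average in control, TNP-KLH and TNP-LPS, then to the chromatin remodeller CHD8 (GSONMG00002565001, r = 0.989) and A-kinase anchor protein 1 (GSONMG00039019001, r = 0.982). The gene nearest to TRAF2 and to both TRAF3 genes was in each case the DNA demethylase TET2 (GSONMG00019467001, r = 0.969, 0.980 and 0.977), with mean levels of 8.13, 22.1 and 20.8 CPM. After it came C-myc promoter-binding protein (GSONMG00046076001, r = 0.958) and ribosomal protein S6 kinase beta-1 (GSONMG00039613001, r = 0.953) for TRAF2. For the first TRAF3 gene they were the same kinase (r = 0.960) and the glucose transporter GLUT1 (GSONMG00006116001, r = 0.957), and for the second GLUT1 (r = 0.975) and ubiquitin carboxyl-terminal hydrolase 31 (GSONMG00034638001, r = 0.956). The first CD40-assigned gene was closest to the SUMO isopeptidase USPL1 (GSONMG00044329001, r = 0.981), the histone methyltransferase EHMT2 (GSONMG00032996001, r = 0.964) and nuclear receptor coactivator 7 (GSONMG00047655001, r = 0.962). The second was closest to kidney-type glutaminase (GSONMG00071000001, r = 0.972), a beta-mannosyltransferase of the dolichol pathway (GSONMG00013576001, r = 0.970) and general transcription factor IIH subunit 2 (GSONMG00030679001, r = 0.962).

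In the rest of the pathway, genes were called in both directions with TNP-LPS. With TNP-KLH the fit without the block called few of them, as it did over all genes, and the block and DESeq2 called more. Without the 6 genes, lists of TNF ligands, other TNF receptors, other TRAF rows, TRAF partners, NF-κB genes and genes that CD40 raises in mammalian B cells held 224 rows together, of which 189 were tested. With TNP-LPS 17 of them (8.99%) rose and 18 (9.52%) fell against control, where 10% of all genes tested rose and 6.73% fell, and the list median was −0.09, the same as that of all genes (−0.09, on the log2 scale). With TNP-KLH 1 rose and 0 fell, where 0.76% of all genes rose and 0.117% fell, with 40 of the 189 (21.2%) at an unadjusted p under 0.05 beside 12.6% of all genes. DESeq2 called 14 of the 189 higher and 2 lower, beside 3.18% and 1.32% of all genes. The list median in the edgeR fit without the block was 0.13 against −0.03 over all genes. With the block 38 rose (20.1%) and 30 fell (15.9%) with TNP-LPS, where 16.3% of all genes rose and 14.2% fell, and 34 rose (18.0%) and 9 fell (4.76%) with TNP-KLH, where 6.05% of all genes rose and 4.23% fell. Between the antigens 3 (1.59%) were higher and 5 (2.65%) lower with TNP-LPS, beside 2.12% and 0.745% of all genes. With the block 10 (5.29%) were higher and 29 (15.3%) lower, beside 8.49% and 5.94% of all genes. Between the antigens the list median in the edgeR fit without the block was −0.30 against −0.03 over all genes.

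Downstream of the receptor, 2 of 35 NF-κB genes (5.71%) rose with TNP-LPS and 1 (2.86%) fell, beside 10% and 6.73% of all genes, and with the block 8 (22.9%) rose and 3 (8.57%) fell beside 16.3% and 14.2%. With TNP-KLH 0 of 35 were called by edgeR and 4 (11.4%) were at an unadjusted p under 0.05, beside 12.6% of all genes, while with the block 7 rose and 0 fell beside 6.05% and 4.23%. NF-κB p100 (GSONMG00080517001), the precursor that the non-canonical pathway processes, had near-equal means with both antigens, at 257 ± 68.4 CPM in control, 521 ± 70.2 CPM with TNP-KLH and 523 ± 66.1 CPM with TNP-LPS (SD, n = 3). It rose with TNP-LPS (log2 change 1.03, edgeR adjusted p = 0.0163), lost as a call without TNP-LPS replicate 2 (0.0577) or replicate 3 (0.0533). With TNP-KLH its log2 change was 1.02 (edgeR adjusted p = 0.0881, and 0.00288 with the block, which called it). NF-κB p105 (GSONMG00024578001), the precursor in the canonical pathway, rose with TNP-LPS by 1.37 on the log2 scale (edgeR adjusted p = 0.0354), and the kinase IKKα (GSONMG00010266001), which phosphorylates p100, fell by 0.90 (edgeR adjusted p = 0.0398). When 1 library was left out, the p105 call was lost without control replicates 1 and 2, TNP-KLH replicate 2 and TNP-LPS replicates 2 and 3 (adjusted p up to 0.117), and the IKKα call was kept only without TNP-LPS replicate 2 (up to 0.134). Without all libraries numbered 2 the p100 and p105 calls with TNP-LPS were lost, and that of IKKα was kept.

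Among the TRAF partners, 5 of 69 (7.25%) rose and 10 (14.5%) fell with TNP-LPS, beside 10% and 6.73% of all genes, or 15 (21.7%) and 18 (26.1%) with the block, beside 16.3% and 14.2%. Both rows of the TRAF3-interacting JNK-activating modulator fell, from 9.65 ± 0.721 to 1.70 ± 0.284 CPM (GSONMG00069922001, log2 change −2.51, edgeR adjusted p = 2.88e-04) and from 48.7 ± 12.1 to 12.8 ± 2.16 CPM (GSONMG00069924001, −1.92, edgeR adjusted p = 5.95e-04; SD, n = 3). UBE2N (GSONMG00026321001), a conjugating enzyme that works with TRAF ligases, rose by 1.33 (edgeR adjusted p = 0.00239), and the stress kinase MAP3K5 (GSONMG00032598001) fell by 2.64 (edgeR adjusted p = 0.00502), both on the log2 scale. These 4 calls held when any 1 library was left out, but that of MAP3K5 was lost without all libraries numbered 2. TRAF5 (GSONMG00073328001), the closest relative of TRAF3, fell with TNP-LPS by 1.33 on the log2 scale (edgeR adjusted p = 0.0413), a call lost without control replicates 1 and 2 or any TNP-LPS library (up to 0.128). Of the 69 TRAF partners, edgeR called 0 with TNP-KLH, and 18 (26.1%) were at an unadjusted p under 0.05, beside 12.6% of all genes. With the block 12 (17.4%) rose and 7 (10.1%) fell with TNP-KLH, beside 6.05% and 4.23%. Between the antigens 1 (1.45%) was higher and 3 (4.35%) lower with TNP-LPS, beside 2.12% and 0.745%. With the block these were 3 (4.35%) and 18 (26.1%), beside 8.49% and 5.94%.

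Of 28 genes that CD40 raises in mammalian B cells, 5 (17.9%) rose and 2 (7.14%) fell with TNP-LPS, beside 10% and 6.73% of all genes, and 1 (3.57%) rose with TNP-KLH, beside 0.76%. With the block 9 (32.1%) rose and 2 (7.14%) fell with TNP-LPS, beside 16.3% and 14.2%, and 7 (25.0%) rose and 0 fell with TNP-KLH, beside 6.05% and 4.23%. The activation marker CD83 (GSONMG00012647001) rose with both, from 53.5 ± 10.6 CPM to 132 ± 18.6 CPM with TNP-KLH (log2 change 1.30, edgeR adjusted p = 0.0497) and 117 ± 27.9 CPM with TNP-LPS (1.13, edgeR adjusted p = 0.0125; SD, n = 3). Its TNP-KLH call was kept only without TNP-LPS replicate 1 when single libraries were left out (up to 0.187). The homing receptor CCR7 rose with TNP-LPS in both rows, by 2.53 (GSONMG00049598001, edgeR adjusted p = 6.16e-04) and 2.37 (GSONMG00017247001, edgeR adjusted p = 0.00120) on the log2 scale. The death receptor FAS (GSONMG00082555001) fell by 0.95 (edgeR adjusted p = 0.0142, and 0.0544 without control replicate 1). Without all libraries numbered 2 the CD83 calls with both antigens and the FAS call were lost. Both CCR7 calls against control were kept.

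Of the other receptors of the family, 3 of 42 (7.14%) rose and 2 (4.76%) fell with TNP-LPS, beside 10% and 6.73% of all genes. With the block 4 (9.52%) rose and 4 (9.52%) fell, beside 16.3% and 14.2%. With TNP-KLH edgeR called 0 of 42, and with the block 6 (14.3%) rose and 0 fell, beside 6.05% and 4.23%. Between the antigens 0 were called, and with the block 1 (2.38%) was higher and 3 (7.14%) lower with TNP-LPS, beside 8.49% and 5.94%. Of the 3 that rose with TNP-LPS, 1 was the member 5A row given above among the CD40 rows. Another, 4-1BB (GSONMG00057532001, TNFRSF9), a T cell costimulator that also binds TRAF1 and TRAF2, rose by 3.12 on the log2 scale (edgeR adjusted p = 0.0126). Its log2 change was 2.69 without control replicate 2 and 4.49 without control replicate 3, and without all libraries numbered 2 it was 2.55 and not called (edgeR adjusted p = 0.0965). The receptor HVEM (GSONMG00035716001, TNFRSF14) fell by 1.31 (edgeR adjusted p = 0.0249), a call lost without control replicates 1 and 2 or TNP-LPS replicates 2 and 3 (up to 0.0890). The HVEM call was also lost without all libraries numbered 2. Of 11 ligands tested, TWEAK (GSONMG00066797001) fell by 4.32 on the log2 scale with TNP-LPS (edgeR adjusted p = 3.86e-04), with 2 to 8 reads in the TNP-LPS libraries. The B cell survival factor BAFF (GSONMG00026860001) fell by 3.20 (edgeR adjusted p = 5.88e-04). The teleost TNF-New (GSONMG00071961001) rose by 4.62 (edgeR adjusted p = 0.0294), with 0 to 8 reads in control. Its log2 change ran from 3.40 without TNP-LPS replicate 1 to 6.34 without control replicate 2, and the call was lost without control replicates 1 and 3 or TNP-LPS replicates 1 and 2 (edgeR adjusted p up to 0.111). The TNF-New call was also lost without all libraries numbered 2, and those of TWEAK and BAFF against control were kept. Summed monocyte, macrophage and dendritic cell markers were also lower with TNP-LPS than in control (21.4 to 35.7 against 87.1 to 130.1 CPM). So were B cell markers (2045 to 2418 against 3438 to 4071 CPM). Much of the first sum came from 2 CD209-like rows, at 31.5 and 32.8 CPM on average in control and 9.04 and 7.60 CPM with TNP-LPS. Its macrophage colony-stimulating factor 1 receptor rows showed no such fall, at 2.69 and 0.11 CPM in control and 2.58 and 0.31 CPM with TNP-LPS. The immunoglobulin mu rows of the B cell list were not lower, at 8.73 and 1.04 CPM in control and 10.05 and 1.97 CPM with TNP-LPS. The part of either cell type in the falls of TWEAK and BAFF was not tested. TWEAK, BAFF and the TRAF3-interacting modulator were also lower, and CCR7 higher, when TNP-LPS was set against TNP-KLH (edgeR adjusted p 0.0250 to 0.0397). Each of these 6 calls was lost without any single TNP-KLH library or without TNP-LPS replicate 1 or 2, the TWEAK and BAFF calls also without control replicate 1, those on CCR7 without any library, and all but that of GSONMG00069924001 without TNP-LPS replicate 3. All 6 were also lost without all libraries numbered 2.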

How the data were processed

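Reads of 9 libraries, 3 each of control, TNP-KLH and TNP-LPS, were mapped by the authors with TopHat to the Genoscope trout genome and counted per gene with SAMtools and HTSeq, and the deposited values used here are these raw counts. The library kit was a stranded total RNA kit. For the strand option of the counting, and for tool versions, nothing was found in the sources used here. The same counts stood in 3 tables, whose columns of the authors' own comparisons (means, fold changes and p-values from DESeq) were not used.

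Of 46585 genes, the 31691 that reached 5 reads in some library were kept. They were tested with edgeR 4.0.16 in R 4.3.3 (quasi-likelihood test, TMM factors of 0.797 to 1.10, 1 factor of 3 groups over all 9 libraries, Benjamini-Hochberg adjustment over all genes, threshold 0.05). The common biological coefficient of variation was 0.446. Confidence intervals of log2 differences use the t quantile of the fitted degrees of freedom. DESeq2 1.42.0, RLE size factors, other filters, fits of 2 groups, a replicate block and fits without libraries were alternatives. The script was tested on simulated data. Log2 CPM used a prior count of 2. Tables and figures were made with Python 3.11.15, pandas 2.3.3 and matplotlib 3.10.9.

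The pairing of samples by replicate number was checked on deviations from group means. The 9 between-group pairs with the same number had correlations of 0.227 to 0.646 and the 18 with different numbers −0.499 to 0.0345, so that the numbers pair the samples. This comes from the data, since the labels do not say what a number marks. Where fish are not stated to be separate, p-values measure the spread between these libraries. Within groups the chi-square per gene was 23.2 to 70.2, so that no library was counted as a copy of another.

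The 6 genes, the lists and the tests were chosen with earlier results of these data known. Lists were made by words in the descriptions, and tankyrase rows were removed from the TRAF partners after the descriptions had been read. Named are all members, all rows of the same name, per list up to 4 called genes by smallest p with a mean of at least 20 counts in the highest group, and per member the 3 described genes of highest r with a mean of at least 50 counts. A RefSeq table matched 0 of the identifiers, so that positions and sequences are not given.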

Additional observations from a re-analysis of the deposited data

How the results depend on the processing

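Besides leaving out each library in turn, 7 alternatives were run. All 12 log2 fold changes of the 6 genes against control kept their sign in each of them and without any library, and without all libraries numbered 2 those of the TRAF3 genes with TNP-LPS were 1.34 and 1.37, where the fit with them gave 1.76 and 1.88. Between the antigens, TRAF1 was called with the replicate block (1.25). The difference of the first TRAF3 gene turned to −0.023 with 2 groups fitted and −0.18 without libraries numbered 2, and that of the second to −0.014 with RLE factors, −0.017 with a mean count of at least 10, −0.014 with DESeq2, −0.043 with 2 groups fitted, −0.003 with the replicate block and −0.24 without libraries numbered 2. No alternative called these.

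Without 1 library, log2 fold changes with TNP-LPS against control were 1.27 to 2.82 and 1.59 to 2.70 for the CD40-assigned genes, 3.47 to 4.46 for TRAF1, 1.58 to 1.92 for TRAF2, and 1.48 to 1.97 and 1.62 to 2.11 for the TRAF3 genes. With TNP-KLH they were 0.94 to 2.63, 1.23 to 2.69, 2.38 to 3.18, 1.80 to 1.99, 1.64 to 1.92 and 1.67 to 2.15. Between the antigens they were −0.42 to 1.00, −0.34 to 0.81, 0.61 to 1.78, −0.28 to 0.062, −0.24 to 0.25 and −0.24 to 0.23.

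The replicate block gave 5167 genes higher and 4489 lower with TNP-LPS against control, 1918 and 1340 with TNP-KLH, and 2692 and 1883 between the antigens, where the fit without it gave 3181 and 2133, 241 and 37, and 673 and 236. Without libraries numbered 2 the counts were 1743 and 756, 0 and 0, and 0 and 0. With 2 groups fitted they were 0 and 0 with TNP-KLH, and 13 and 32 between the antigens. DESeq2 gave 1007 and 417 with TNP-KLH, and 1591 and 730 between the antigens, and a mean count of at least 10 gave 66 lower with TNP-KLH. Without 1 library the counts were 2404 to 2913 and 1238 to 1885 with TNP-LPS, 0 to 302 and 0 to 53 with TNP-KLH, and 0 to 576 and 0 to 272 between the antigens.

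In the pathway lists, the block gave 38 higher and 30 lower with TNP-LPS, 34 and 9 with TNP-KLH, and 10 and 29 between the antigens. Without libraries numbered 2 these were 8 and 11, 0 and 0, and 0 and 0. With TNP-KLH 0 were higher with RLE factors, with no filter and with 2 groups fitted, and DESeq2 gave 14 and 2. Between the antigens 2 groups fitted gave 0 and 1, and DESeq2 gave 11 lower. Without 1 library the counts were 8 to 18 and 12 to 15, 0 to 1 and 0 to 0, and 0 to 1 and 0 to 5. The cause of these differences was not tested, beyond the fewer libraries in some fits. The second CD40-assigned gene was counted from only 11 to 47 reads in control libraries, and the limit set by depth was not compared between genes.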
